A study of Mus musculus with 10 samples.

Results

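The genes described here encode the machinery that brings proteins into mitochondria. They were chosen by name: all protein-coding mouse genes whose symbol starts with Tomm or Timm, plus Pam16, Dnajc19, Grpel1, Samm50, Mtx1, Mtx2, Chchd4, Gfer, Pmpca and Pmpcb. This gave 36 genes, of which 35 are among the 26401 genes of the count table and Tomm20l was not analysed here. Of the 35, 33 passed a filter on low counts and were tested. RNA was sequenced after poly(A) capture from 10 populations of immortalized mouse embryonic fibroblasts, cultured connective tissue cells grown from embryos. In 5 populations the share of mutant mitochondrial genomes was high (high 1 to high 5) and in 5 it was low (low 1 to low 5). All 10 carry the heteroplasmic mitochondrial DNA change m.5024C>T, are labelled C57Bl/6N and were grown without treatment in high-glucose DMEM with serum and uridine. No population without the change was analysed here. Each population has its own clone number and gave 1 library, so the p-values measure the spread between these clones. The sources used here do not give the mutant share of any clone.

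Most mitochondrial proteins are encoded in the nucleus, made in the cytosol and imported. The TOM complex is the entry gate of the outer membrane. TIM23 carries proteins with a cleavable presequence across the inner membrane, pulled by a motor built around the heat shock protein Hspa9, and a processing peptidase then cuts the presequence off. TIM22 inserts carrier proteins into the inner membrane with the help of the small TIM chaperones, the SAM complex builds barrel proteins into the outer membrane, and a disulphide relay traps small proteins between the membranes. Import needs the membrane potential that the respiratory chain maintains, part of which mitochondrial DNA encodes.

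Library totals ran from 17318372 to 28208576 counts. Col1a1, Vim and Fn1, abundant fibroblast genes, had at least 3310, 4021 and 993 CPM (counts relative to the TMM-scaled library total) in every high library, and at least 3435, 5274 and 1021 CPM in every low library. However, the other fibroblast markers listed were lower or uneven between clones. Lum stayed at or below 0.0543 CPM and Dcn at or below 3.53 CPM in all libraries. S100a4 had 3.96 to 14.7 CPM in high clones and 3.39 to 7.52 CPM in low clones. Thy1 ran from 0 to 56.8 CPM in high clones and from 0 to 0.326 CPM in low clones. For Col1a2 the ranges were 1.98 to 614 CPM and 72.9 to 886 CPM, in high and low clones in turn. They were 0.266 to 50.9 CPM and 2.12 to 9.29 CPM for Pdgfra, and 4.83 to 128 CPM and 7.11 to 25.2 CPM for Pdgfrb. Of the 10 fibroblast markers listed, 8 were tested and none passed, and their summed level was 9407 to 19629 CPM in high clones and 11548 to 13334 CPM in low clones. Of 4 tested epithelial markers 1 rose, Krt18, at 2.27 to 294 CPM in high clones and 0.327 to 0.598 CPM in low clones. Krt19 and Krt8 pointed the other way and were not called. Krt19 had 109.5 to 384 CPM in high clones and 442 to 666 CPM in low clones. Krt8 had 0.605 to 2.59 CPM in high clones and 2.23 to 6.9 CPM in low clones. The summed epithelial level was 113 to 509.6 CPM in high clones and 453 to 672 CPM in low clones. Of 2 tested adipocyte markers both rose (Fabp4 and Pparg), with sums of 39.97 to 148 CPM in high clones and 11.8 to 24.6 CPM in low clones. Adipoq and Plin1 stayed at or below 0.0418 CPM in all libraries. Of 1 neural marker tested, 1 fell (Tubb3), with sums of 3.39 to 10.1 CPM in high clones and 12.97 to 32.02 CPM in low clones. The endothelial, blood and skeletal muscle lists had no called member, and Cdh5, Ptprc, Myog and Sox10 had 0 counts throughout. The ribosomal RNA-like transcript Gm42418 had 745 to 1154 CPM in high clones and 1149 to 40941 CPM in low clones, with low 2 and low 3 (8017 CPM) at the top. The part of these differences in the results below was not tested.

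The question put to these genes is whether their RNA differs between clones with a high and a low load of the mutation. One gene fell in the 5 high populations: Timm44, which tethers the motor to the TIM23 channel, at 66.6 ± 8.64 CPM in high clones and 122 ± 8.36 CPM in low clones (SD, n = 5 each). No member rose. Tomm20, the outer membrane receptor for presequences, was the next in rank, at 117 ± 12.9 CPM in high clones and 159 ± 20.2 CPM in low clones, and missed the threshold. Both lie on chromosome 8, whose genes were lower in the high clones as a block. By edgeR's quasi-likelihood test with Benjamini-Hochberg adjustment over all 12964 genes tested, 0 of 33 members were called higher and 1 lower at an adjusted p under 0.05. At an unadjusted p under 0.05 there were 0 higher and 2 lower, where 21.6% of all genes tested passed in either direction. DESeq2 called 0 members higher and 2 lower, with 10.2% of its genes called, and limma-voom 0 and 1, with 5.3% called. Over all genes tested, 1.99% were called higher, 2.87% lower and 4.86% in either direction, so 1 call among 33 members is near the background. In bulk RNA, fewer cells of a type and less RNA per cell cannot be told apart.

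Member fold changes (log2, high over low) ran from -0.88 for Timm44 to 0.59 for Dnajc19, with a median of 0.07 against 0.02 for all genes tested. Their signs were mixed, 19 positive and 14 negative, and 15 of the 33 turned sign in at least 1 of 19 alternative settings. For 30 of the 33 the fold change lay within 0.5 log2 units of no change, which is 90.9% of them, against 71.2% of all genes tested. The 95% interval lay inside 1 log2 unit on both sides for 29 members (87.9%), against 61.9% of all genes tested. The median SD of log2 CPM within a group was 0.28 for the members and 0.37 for all genes tested. All genes tested were not matched to the members for level. These comparisons therefore do not show that the members are more stable than other genes of their level. The high and low values did not overlap for 2 members, Timm44 and Tomm20, where 7.17% of all genes tested showed no overlap.

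**Figure D1:**
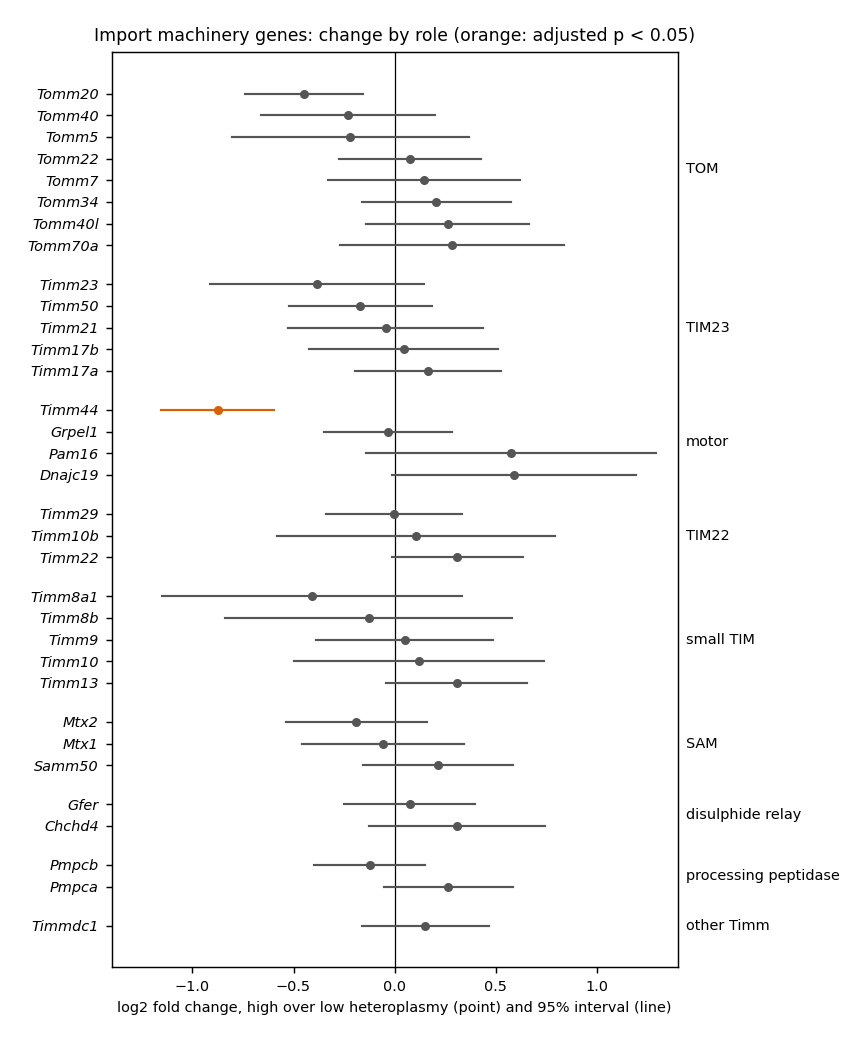
Log2 fold change of each of the 33 tested import genes, high over low heteroplasmy (point, horizontal axis), with its 95% interval (line), grouped by role from top to bottom. Timm44 at -0.88 is the 1 gene in orange, with an adjusted p under 0.05, and all intervals but those of Timm44 and Tomm20 cross 0.

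The sequences upstream of the chromosome 8 members are shown because these are the 2 genes on which the comparison turns. They come from RefSeq (GRCm38.p6), run 5′ to 3′ on the minus strand of the genome, which is the strand of both genes, and end at or just before the RefSeq start site. Capitals mark the motif GCGCA, any base, GCGC, which NRF1, a regulator of nuclear genes for mitochondria, is known to bind, on either strand.
Timm44: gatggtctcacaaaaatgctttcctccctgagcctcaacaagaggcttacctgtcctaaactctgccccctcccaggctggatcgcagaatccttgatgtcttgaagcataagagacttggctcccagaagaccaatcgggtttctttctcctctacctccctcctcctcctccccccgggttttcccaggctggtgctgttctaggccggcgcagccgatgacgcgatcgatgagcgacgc
Tomm20: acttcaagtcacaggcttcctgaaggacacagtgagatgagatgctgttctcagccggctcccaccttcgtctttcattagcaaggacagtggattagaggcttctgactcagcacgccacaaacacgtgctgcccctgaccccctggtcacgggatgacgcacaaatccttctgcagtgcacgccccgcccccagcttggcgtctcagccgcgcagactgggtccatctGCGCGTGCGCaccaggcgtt
The Timm44 stretch is chr8:4275914-4276155, without the last 8 bases before the RefSeq start, which GENCODE annotates as exon, and the Tomm20 stretch is chr8:126945922-126946171. Both strands of the 250 bases before the start were searched for this motif, for the ETS core CCGGAAG and for the YY1 core AAGATGGC. The Timm44 window held none of them, and the Tomm20 window held the NRF1 motif, beginning 20 bases before the start.

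Of the 35 members 32 had an upstream window in the table. The NRF1 motif was in those of 3 members (Chchd4, Pam16 and Tomm20), which is 9.38%, against 4.23% of all 27025 genes with a window and 9.66% of those whose gene was tested. The ETS core was in the windows of 14 members, which is 43.8%, against 7.83% of all genes and 16.4% of the tested ones. The YY1 core was in 0 member windows, against 1.83% of all genes and 2.60% of the tested ones. A match is a description of the letters, not a binding site. The match nearest the start is shown for the 5 members that have one and the highest level per length in their role, with the ETS core in capitals and read on the gene's own strand, so that it appears as either CCGGAAG or CTTCCGG.
Tomm22: ccggctcgcttCCGGAAGacgctctgtcc
Timm8b: tgaagcgtgaaCCGGAAGgcagg
Pmpca: ggctcggcgggCCGGAAGccagcgccgaa
Grpel1: cacctcctcacCTTCCGGggctcccagaa
Timmdc1: tccgagagcttCCGGAAGt
The match begins 44, 12, 53, 204 and 8 bases before the start of Tomm22 (chr15:79670813-79670841), Timm8b (chr9:50603878-50603900), Pmpca (chr2:26389284-26389312), Grpel1 (chr5:36464970-36464998) and Timmdc1 (chr16:38522664-38522682), the last on the minus strand and the others on the plus strand. None of these 5 genes passed the test.

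Timm44 is the matrix protein that holds the motor at the exit of the TIM23 channel (ENSMUSG00000002949, chromosome 8, 4259731 to 4275913 in GRCm38, minus strand). It had 65.9, 76.2, 61.1, 73.9 and 55.6 CPM in high 1 to high 5, against 116, 124, 111, 128 and 131 CPM in low 1 to low 5. Every high clone was below every low clone, with a gap between 76.2 CPM in high 2 and 111 CPM in low 3. The log2 fold change was -0.88 (SE 0.13, 95% interval -1.15 to -0.60, edgeR adjusted p = 0.00764). DESeq2 gave -0.87 and limma-voom -0.88, both called. With each library left out in turn the fold change ran from -0.93 to -0.82 and the edgeR call held in all 10 fits. Without low 2 and low 3, the libraries rich in Gm42418, it was -0.90 and the adjusted p was 0.0513.

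The other motor genes did not pass the test. Grpel1, the exchange factor that resets Hspa9, had the highest level per length of the 4, 34.5 ± 5.15 CPM per kb in high clones against 35.3 ± 4.62 in low clones. It had 102, 117, 134, 146 and 111 CPM in high 1 to high 5, against 114, 101.2, 133, 138 and 137 CPM in low 1 to low 5, and the groups overlapped throughout (log2 fold change -0.03, 95% interval -0.35 to 0.29). Pam16 and Dnajc19, the J-like protein and the J protein that together set the pace of Hspa9, had the highest fold changes among the members, 0.58 and 0.59, with edgeR adjusted p of 0.34 and 0.243. Pam16 had 49.6, 15.5, 23.6, 20.04 and 15.1 CPM in high 1 to high 5, against 19.995, 16.1, 18.6, 17.7 and 10.7 CPM in low 1 to low 5. Dnajc19 had 55.3, 18.6, 35.1, 24.5 and 27.1 CPM in high 1 to high 5, against 25.5, 21.7, 25.3, 16.1 and 18.2 CPM in low 1 to low 5. High 1 stood highest for both, and without it their fold changes were 0.16 and 0.31. The exons of Pam16 overlap those of Glis2 on the other strand for 18.7% of their length, Glis2 had a mean of 106 CPM against 20.7 CPM for Pam16, and Gm9803 matches 89.6% of its transcript, so the Pam16 counts are uncertain. The exons of Dnajc19 overlap those of Fxr1 on the other strand for 4.42% of their length. Fxr1 had a mean of 179 CPM against 26.7 CPM for Dnajc19, so the Dnajc19 counts are uncertain as well. Hspa9 itself, which is not a Timm or Tomm gene and was looked at as a partner, had a log2 fold change of 0.08 (95% interval -0.60 to 0.76).

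In the TOM complex Tomm20 (ENSMUSG00000093904, chromosome 8, 126930667 to 126945844 in GRCm38, minus strand) had 126, 101.2, 107, 117 and 132 CPM in high 1 to high 5, against 173, 168, 180.3, 137 and 138 CPM in low 1 to low 5. All high clones were below all low clones, although high 5 (132 CPM) and low 4 (137 CPM) nearly met. Its log2 fold change was -0.45 (SE 0.13, 95% interval -0.74 to -0.16), and the edgeR adjusted p of 0.0796 missed the threshold. DESeq2 called it (-0.44, adjusted p = 0.0401) and limma-voom did not (adjusted p = 0.0827). Tomm22, the central receptor, had the highest level per length of the complex, 145 ± 24.4 CPM per kb in high clones against 137 ± 22.1 in low clones. It had 286, 193, 271, 238 and 205 CPM in high 1 to high 5, against 257, 194, 208, 200.2 and 274 CPM in low 1 to low 5, and the groups overlapped over nearly their whole range (log2 fold change 0.08, 95% interval -0.28 to 0.43).

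Tomm40 forms the pore and Tomm40l is its paralogue. Tomm40 had 89.5, 113, 94.6, 135 and 91.1 CPM in high 1 to high 5, against 98.8, 85.9, 121, 165 and 143 CPM in low 1 to low 5. Tomm40l had 36.7, 54.3, 45.3, 28.8 and 35.9 CPM in high 1 to high 5, against 31.2, 31.1, 29.5, 33.8 and 42.3 CPM in low 1 to low 5. Their fold changes were -0.23 and 0.26 and neither passed. Tomm70a, the receptor for carrier proteins, was at 0.28, and ran from 87.2 CPM in high 3 to 193 CPM in high 5, more than the low range of 71.2 to 146 CPM. The small subunits Tomm5 and Tomm7 were at -0.22 and 0.15, and the cytosolic co-chaperone Tomm34 at 0.21. The size of these values moved when single libraries were left out. Tomm70a was at 0.10 without high 5 and 0.16 without low 1. Tomm5 was at -0.46 without high 5, further from 0, and at -0.11 without high 1 or low 5. Tomm7 was at -0.04 without high 1, and Tomm34 at 0.08 without high 4. Of these genes only Tomm7 turned sign in any of the 19 alternative settings. Tomm6 had 0 counts in 9 libraries and 2 in low 5, too few to test. Of its exon bases, 75.95% are shared with the same-strand gene Gm21981 and 19.4% with Tomm6os on the other strand, so its true level cannot be read from these counts.

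In the presequence translocase TIM23 none of 5 genes passed. Timm17a and Timm17b encode alternative forms of the same channel subunit. Timm17a had 92.7, 109.6, 134, 87.8 and 88.2 CPM in high 1 to high 5, against 86.4, 89.8, 73.4, 91.2 and 116 CPM in low 1 to low 5. Timm17b had 110.4, 82.3, 118, 115 and 66.4 CPM in high 1 to high 5, against 101.2, 86.8, 137, 72.4 and 79.7 CPM in low 1 to low 5. The fold changes were 0.17 (95% interval -0.20 to 0.53) and 0.05 (95% interval -0.42 to 0.51), and over all 10 libraries Timm17b had the highest mean level per length of the complex, 38.5 ± 8.92 CPM per kb in high clones against 37.3 ± 9.94 in low clones, close to Timm50 with 34.9 ± 7.97 CPM per kb in high clones against 39.3 ± 1.49 in low clones. The receptor Timm50 was at -0.17, with 66.6 to 119.8 CPM in high clones and a narrow 98.8 to 108.8 CPM in low clones. Timm21, which links TIM23 to TOM, was at -0.04. The channel gene Timm23 was at -0.38 (95% interval -0.91 to 0.15), and low 4 with 29.3 CPM was far above the other 9 libraries (10.6 to 19.4 CPM). Without low 4 its fold change was -0.18. A second protein-coding gene, Gm10273, matches 95.6% of the Timm23 transcript at 99.9% identity and held 0 or 1 counts per library, and 4 pseudogenes match 53.4% to 53.5% of it, so the Timm23 counts may hold only part of its reads.

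TIM22 and the small TIM chaperones held no called gene among 8 tested. Timm22, the carrier channel, had 48.01, 40.5, 56.0, 40.7 and 49.6 CPM in high 1 to high 5, against 33.9, 32.4, 46.4, 38.6 and 38.1 CPM in low 1 to low 5. Its 3 highest values were in the high group, but high 2 and high 4 lay below low 3 (log2 fold change 0.31, 95% interval -0.01 to 0.63, edgeR adjusted p = 0.251). Its partner Timm29 was at 0.00, and Timm10b, which docks the chaperones on the channel, at 0.11 with 50 to 103 counts per library. Timm8b, a chaperone that works with Timm13, had the highest level per length of all members, 153 ± 79.4 CPM per kb in high clones against 167 ± 41.6 in low clones. It had 143, 48.2, 88.6, 76.0 and 39.0 CPM in high 1 to high 5, against 109.7, 72.8, 79.1, 61.8 and 108 CPM in low 1 to low 5. The high clones spread more widely than the low ones, from 39.0 CPM in high 5 to 143 CPM in high 1, on both sides of the low range. Its log2 fold change was -0.13, with -0.45 without high 1 and 0.04 without high 5. Timm13 was at 0.31, Timm10 at 0.12, Timm9 at 0.05 and Timm8a1 at -0.41, all with intervals across 0. Timm8a2 had 0 or 1 counts per library and was not tested.

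No gene of the remaining roles passed. Samm50, the pore of the SAM complex, had 128, 222, 204, 195 and 192 CPM in high 1 to high 5, against 128, 154, 164, 170.4 and 196 CPM in low 1 to low 5 (log2 fold change 0.21, 95% interval -0.16 to 0.58). High 1 and low 1 were the lowest of their groups, and high 2 to high 4 lay within 195 to 222 CPM. The metaxin genes, whose products sit beside Samm50, overlapped between the groups. Mtx1 had 119, 67.1, 78.3, 63.3 and 73.5 CPM in high 1 to high 5, against 87.9, 69.3, 80.1, 96.0 and 85.2 CPM in low 1 to low 5. Mtx2 had 73.6, 54.7, 65.0, 73.5 and 49.9 CPM in high 1 to high 5, against 88.9, 58.6, 74.3, 67.3 and 72.2 CPM in low 1 to low 5. Their fold changes were -0.06 (95% interval -0.46 to 0.34) and -0.19 (95% interval -0.54 to 0.16).

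Chchd4, the oxidoreductase that puts disulphide bonds into incoming proteins, was at 0.31 (95% interval -0.13 to 0.74), and Gfer, the oxidase that recharges it, at 0.07 (95% interval -0.25 to 0.40). Gfer had 51.1, 35.6, 48.4, 45.7 and 44.9 CPM in high 1 to high 5, against 45.4, 42.3, 43.95, 49.6 and 33.2 CPM in low 1 to low 5, a nearly complete overlap. Pmpca and Pmpcb encode the subunits of the processing peptidase. Pmpca had 384, 309, 369.6, 365 and 356 CPM in high 1 to high 5, against 286, 264, 235, 358 and 342 CPM in low 1 to low 5. Low 4 and low 5 reached the range of the high clones and the other low clones did not (log2 fold change 0.26, 95% interval -0.05 to 0.58, edgeR adjusted p = 0.323). Pmpcb had 140.4, 153, 131, 136 and 154 CPM in high 1 to high 5, against 153, 134, 188, 157 and 146 CPM in low 1 to low 5, with low 3 above all others (log2 fold change -0.12, 95% interval -0.40 to 0.15). Timmdc1 carries a Timm symbol but is known as an assembly factor of complex I. It had 44.1, 42.1, 39.0, 40.6 and 47.4 CPM in high 1 to high 5, against 34.1, 39.7, 49.5, 35.6 and 32.9 CPM in low 1 to low 5 (log2 fold change 0.15, 95% interval -0.16 to 0.46).

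**Figure D2:**
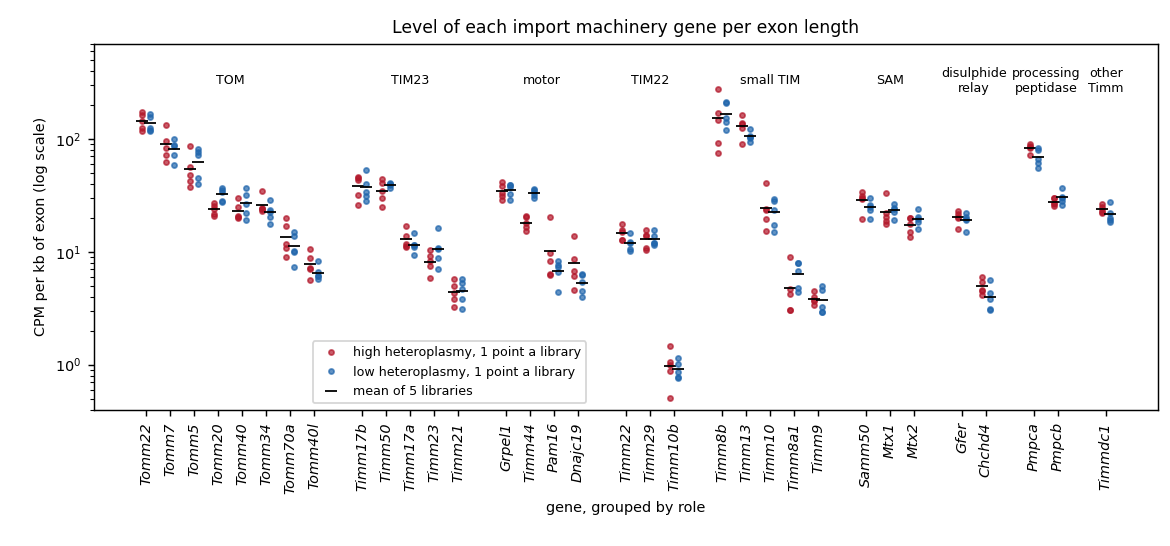
Level of the 33 tested import genes as CPM per kb of annotated exon (vertical log axis), by role and then by mean level, with 1 point for each high (red, left) and low (blue, right) library and a bar for the mean of 5. Timm8b, Tomm22 and Timm13 are at the top, Timm10b is at the bottom near 1 CPM per kb, and Timm44 is the gene whose red and blue points are clearly apart.

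Levels per length differed more between genes than between the groups. Besides Timm8b and Tomm22, high levels were found for Timm13 (130.3 ± 26.1 CPM per kb in high clones against 105 ± 10.3 in low clones), Tomm7 (89.6 ± 27.6 CPM per kb in high clones against 81.0 ± 15.9 in low clones) and Pmpca (83.3 ± 6.63 CPM per kb in high clones against 69.4 ± 12.1 in low clones; SD, n = 5 each throughout). In the motor, Timm44 had 18.2 ± 2.36 CPM per kb in high clones against 33.3 ± 2.28 in low clones. In the low group it thus stood beside Grpel1, and in the high group between Grpel1 and Pam16. Chchd4 (4.93 ± 0.763 CPM per kb in high clones against 3.98 ± 1.05 in low clones), Timm9 (3.85 ± 0.422 CPM per kb in high clones against 3.72 ± 0.986 in low clones) and Timm21 (4.39 ± 0.966 CPM per kb in high clones against 4.52 ± 1.07 in low clones) were near the lower end. Exon length here counts every annotated exon base of the gene, so a gene with long alternative exons such as Timm17a (7893 bases) appears lower than one with a short model such as Timm8b (518 bases).

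For pairs of related subunits the balance is given as a ratio (SD, n = 5 each). The log2 ratio of Timm17a to Timm17b per kb was -1.55 ± 0.38 in high clones against -1.67 ± 0.56 in low clones. That of Tomm40 to Tomm40l was 1.58 ± 0.48 in high clones against 2.03 ± 0.32 in low clones, with 1.47, 1.24, 1.25, 2.41 and 1.53 in high 1 to high 5, against 1.85, 1.65, 2.22, 2.47 and 1.94 in low 1 to low 5. For Pmpca to Pmpcb it was 1.58 ± 0.20 in high clones against 1.19 ± 0.36 in low clones, with low 3 lowest at 0.59. For Mtx1 to Mtx2 it was 0.36 ± 0.35 in high clones against 0.25 ± 0.20 in low clones. The groups overlapped in all 4 ratios. The exons of Tomm40l overlap those of Nr1i3 on the other strand for 64.3% of their length, and Nr1i3 had a mean of 0.204 CPM against 36.9 CPM for Tomm40l. Exon overlap of 10% or more was found for 8 of the 36 members, also for Mtx1 with Gm43737 (21.2% of exon bases), Pmpca with Inpp5e (20.4%), Timm8b with Nkapd1 (15.6%), Grpel1 with Tada2b (11.6%) and Timm10b with Gm45799 (10.5%). Timm10b shares the strand of Gm45799, as does Tomm6 with Gm21981, and the others do not. Smaller overlaps can also matter where the gene on the other strand has the higher level. Dnajc19 with Fxr1 is such a case. Timm10b with Arfip2 is another, with 7.73% of exon bases and a mean of 67.4 CPM for Arfip2 against 3.38 CPM for Timm10b. How the authors' counting treated shared bases and strand is not stated, so the counts of these genes are uncertain to that extent.

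**Figure D3:**
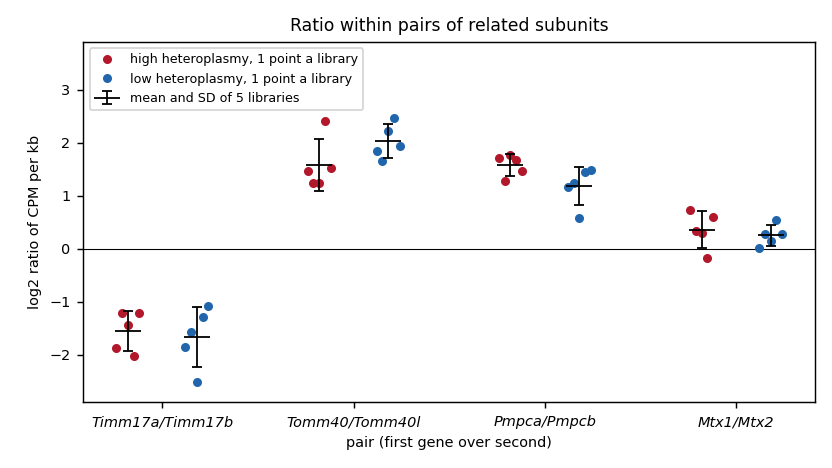
Log2 ratio of CPM per kb within 4 pairs of related subunits (vertical axis), 1 point for each high (red, left) and low (blue, right) library, with the mean and SD of 5. The groups overlap in every pair, and the largest difference of means is that of Tomm40 to Tomm40l, at -0.45.

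Single clones stood apart in several import genes at once, and the genes differed from clone to clone. High 1 was at 1.45 for Pam16, 1.15 for Dnajc19, 0.88 for Timm8b and 0.65 for Tomm7 (log2 CPM minus the gene's median over the 10 libraries), and low for Samm50 (-0.49), Timm10 (-0.60) and Timm23 (-0.59). High 5 was low for Timm8b (-0.99), Timm10b (-0.83) and Timm50 (-0.66) and high for Tomm70a (0.81) and Tomm5 (0.73). High 4 had the highest Timm8a1 (0.91) and Timm10 (0.81), and low 4 the highest Timm23 (0.87). Some of these genes lie on chromosomes that were shifted as a whole in the same clone. The medians of the other genes there were 0.44 for Dnajc19 and -0.38 for Timm23 in high 1. They were -0.45 for Timm10b and Timm50 in high 5, 0.44 for Timm8a1 in high 4 and 0.45 for Timm23 in low 4. Beside Pam16, Timm8b and Tomm7 in high 1 they were smaller, at 0.17, 0.01 and -0.10. The median deviation over the 33 genes was 0.05, -0.12, 0.11, 0.06 and -0.03 in high 1 to high 5, against -0.07, -0.18, 0.03, 0.03 and 0.10 in low 1 to low 5. Low 2, the library with the most Gm42418, was the lowest of its group for 13 of the 33 genes and the highest for 0. Low 3, the next in Gm42418 at 8017 CPM, was the lowest for 5 and the highest for 6. The share of all genes tested for which these libraries were lowest or highest is not given here, so these counts have no background.

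**Figure D4:**
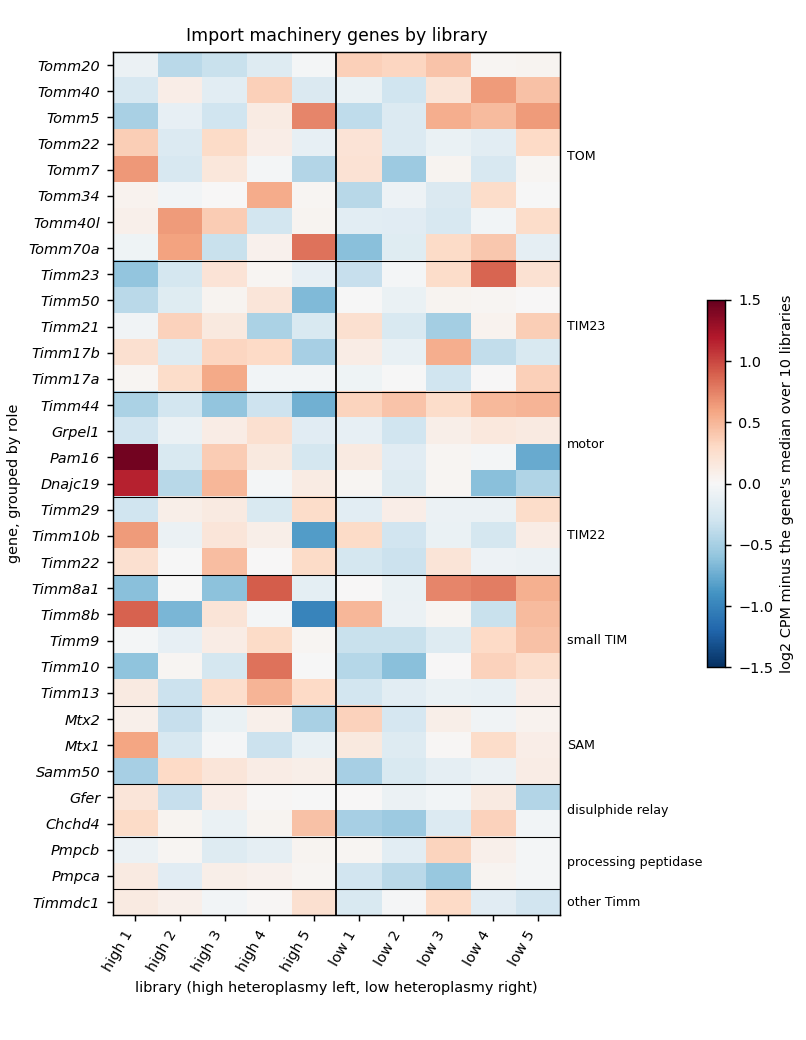
Log2 CPM of each tested import gene minus its median over 10 libraries (colour, red above and blue below), genes down the page by role and libraries across, high on the left and low on the right. The Timm44 row is blue in all high and red in all low libraries, and high 1 stands out in the Pam16 (1.45) and Dnajc19 (1.15) rows.

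The 33 tested members lie on 18 chromosomes. On chromosome 8, 193 of 700 tested genes were called lower (27.6%), and the median log2 fold change of the genes other than the member was -0.59 beside Timm44 and -0.60 beside Tomm20. Timm44 exceeded that median and Tomm20 was under it in size. The 547 other chromosome 8 genes with a mean log2 CPM above 3 had median deviations of -0.34, -0.18, -0.37, -0.15 and -0.50 in high 1 to high 5, against 0.28, 0.42, 0.26, 0.19 and 0.17 in low 1 to low 5. Timm44 deviated by -0.48, -0.27, -0.59, -0.31 and -0.73 in the same high libraries, against 0.34, 0.43, 0.27, 0.48 and 0.51 in the low ones. It was further from 0 than the chromosome in every library, in low 2 and low 3 by 0.00 and 0.01. The difference between Timm44 and its chromosome was -0.17 ± 0.06 in high clones and 0.14 ± 0.16 in low clones (SD, n = 5 each), without overlap. Timm44 was singled out by these same counts, so the lack of overlap is a description and not a test. The share of all genes without overlap in this difference was not computed. Tomm20 deviated by -0.09, -0.41, -0.33, -0.20 and -0.03 in the high libraries, against 0.36, 0.32, 0.42, 0.03 and 0.04 in the low ones. High 5, where the chromosome was lowest, had the highest Tomm20 of the high group, and the differences between Tomm20 and its chromosome overlapped between the groups.

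**Figure D5:**
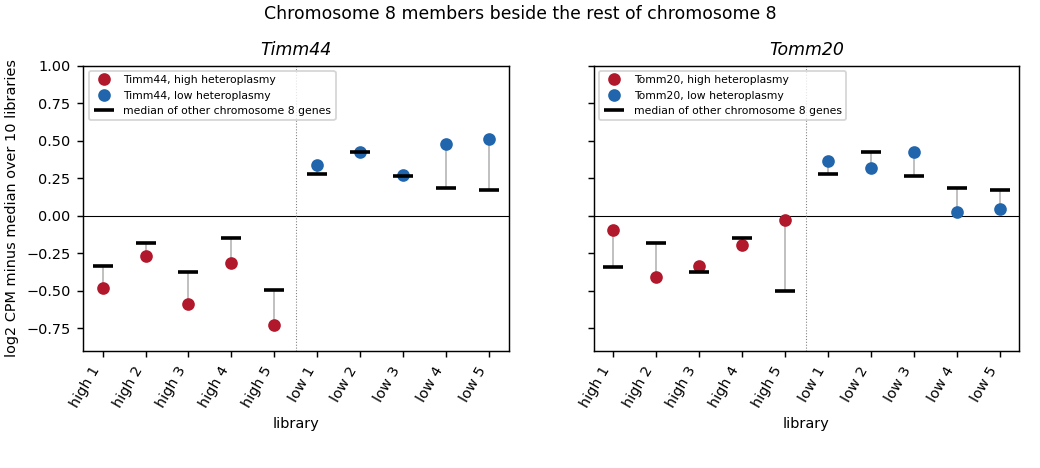
Deviation of Timm44 (left panel) and Tomm20 (right panel) from their median over 10 libraries (log2 CPM, vertical axis) in each library, high (red) left of low (blue), with a black bar for the median deviation of the other chromosome 8 genes. Timm44 lies beyond or at the bar in all 10 libraries, and Tomm20 lies on either side of it.

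When the median shift of each chromosome in each library was taken out, Timm44 was at -0.32 (SE 0.11, edgeR adjusted p = 0.15) and no member was called, where 1.27% of all genes tested were. At an unadjusted p under 0.05 there were then 1 higher and 1 lower member. The higher one was Dnajc19 and the lower one Timm44. The share of all genes passing without adjustment in this fit is not given here, so that count has no background. Tomm20 turned to 0.14. Of the 31 members outside chromosome 8, the same correction moved 16 toward 0 and 15 away from it. It took Timm23 on chromosome 14 to 0.03, Chchd4 on chromosome 6 to 0.02, Timm13 on chromosome 10 to 0.01 and Tomm70a on chromosome 16 to 0.07. Before it, the other genes of chromosomes 14, 6, 10 and 16 had medians of -0.44, 0.34, 0.29 and 0.26. It took Timm21 to -0.19, Timm29 to 0.12, Timm17b to 0.14, Mtx2 to -0.26, Tomm5 to -0.31 and Timm10b to 0.18, all further from 0. Dnajc19 on chromosome 3 was at 0.61 after the correction, with a chromosome median of -0.05, and was not called. Across the 33 genes, the fold change and the median of the gene's chromosome had a Pearson r of 0.71, and 0.52 over the 31 genes outside chromosome 8. This describes genes that share the same libraries, and genes are not replicates.

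Of the 5 tested genes on each side of Timm44, 9 of 10 had a negative fold change, 3 were called lower, and the median was -0.62. This is close to chromosome 8 as a whole, with 27.6% called lower and a median of -0.59. Map2k7, a kinase of the JNK pathway, was at -0.64 (edgeR adjusted p = 0.0302), the chemokine gene Ccl25 at -1.42 (adjusted p = 0.016) and Shcbp1 at -0.93 (adjusted p = 0.0375). Elavl1, an RNA-binding protein gene that lies closest upstream, was at -0.29 and did not pass. Around Tomm20, 8 of 10 were negative and 1 was called lower, the integrin gene Itgb1 (-0.88, adjusted p = 0.0308), with a median of -0.33.

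Of 19 partner genes of import outside the list, all were tested, and edgeR called 0 higher and 1 lower, as did DESeq2 and limma-voom. Over all genes these tools called 4.86%, 10.2% and 5.3% in either direction, so 1 call among 19 in edgeR is near the background. At an unadjusted p under 0.05 edgeR also had 0 higher and 1 lower, where 21.6% of all genes tested passed in either direction. Among them are Hspa9, Dnajc15, Romo1 and Agk at the inner membrane, Mtx3, Dnajc11 and Mtch2 at the outer membrane, the insertion and presequence genes Oxa1l, Mipep and Pitrm1, and the cytosolic chaperone Hspa8. Their median log2 fold change was 0.08, with 12 positive and 7 negative. The called gene was Oxa1l, the insertase that places mitochondrially made proteins into the inner membrane. It had 49.8, 55.3, 54.0, 56.8 and 47.98 CPM in high 1 to high 5, against 70.8, 67.1, 84.6, 109.2 and 90.6 CPM in low 1 to low 5. All high clones lay below all low clones (log2 fold change -0.68, SE 0.15, edgeR adjusted p = 0.0314), where 7.17% of all genes tested showed no overlap in either direction. The call held in 4 of the 10 fits with 1 library left out. It was lost without high 2 (adjusted p = 0.0546), high 3 (0.0674), high 5 (0.0561), low 3 (0.0662), low 4 (0.0642) or low 5 (0.0608). Oxa1l lies on chromosome 14, and with the chromosome shift taken out it was at -0.26 (adjusted p = 0.261).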

How the data were processed

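The deposited table holds raw read counts that the authors made, with 1 column per library and 1 row per Ensembl gene. STAR 2.7.8a, DESeq2 1.36.0, R 4.2.1 and GRCm38 appear in the submitters' processing notes. How reads were counted, with which strand setting and annotation, is not stated in the sources used here, so reads of genes that overlap on opposite strands cannot be told apart. Symbols came from GENCODE M21 (GRCm38), which left 195 of 26401 identifiers without a name (at most 0.0701% of a library's counts).

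Counts were tested with edgeR 4.0.16 in R 4.3.3: default expression filter, TMM scaling, robust quasi-likelihood F-test with the group as the only term, two-sided, Benjamini-Hochberg over 12964 genes, threshold 0.05. SE is the fold change over the root of F, and intervals are 95%. CPM use TMM library sizes. Deviations use log2 CPM with a prior count of 2. Copies of members were sought with blastn 2.17.0 among annotated transcripts (at least 95% identity over at least 50% of the length). Alternatives were RLE and upper-quartile scaling, no filter, 1 CPM in 5 libraries, the replicate number as a block, DESeq2 1.42.0, limma-voom 3.58.1, an offset per chromosome (chromosomes with at least 20 genes), and libraries left out. The fit was tested on simulated data.

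The members, the lists, the tests and the alternatives were chosen with earlier results of these data known. Values in every library are given for members with a p under 0.05, the member with the highest level per kb in each role and 4 pairs. Pam16 and Dnajc19 are given in every library as well, and the neighbours of Timm44 and Tomm20, the Tomm20 and ETS windows and the motif search were added, after their values were seen. The authors' normalized table was not used, and 1 partner gene is not reported here by name.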

Additional observations from a re-analysis of the deposited data

Results flagged for a closer look

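In 66 sets of 5 libraries (33 genes in 2 groups), Dixon's ratio passed its 95% critical value of 0.71 for 2 genes. Chance gives about 1 in 20 sets, so 2 of 66 sets is no more than chance gives. Samm50 had 128 CPM in high 1, against 192 to 222 CPM in the other 4 high libraries, and the gap took 0.732 of the range of log2 CPM. Tomm34 had 106 CPM in high 4, against 69.8 to 74.6 CPM in the other 4 high libraries, with a gap of 0.84 of the range. Neither gene passed the edgeR test.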

How the results depend on the processing

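The count of members called higher was 0 in every one of the 19 alternatives. The count called lower was 1 in the edgeR fit and with each library left out (1 to 1), 2 with DESeq2 (Timm44 and Tomm20), 0 with the chromosome offset and 0 without low 2 and low 3 together. Timm44 kept a negative fold change in all 19 and was called in 17. Over all genes, 258 were higher and 372 lower in edgeR, 733 and 907 with DESeq2, 85 and 79 with the chromosome offset, 14 and 42 without low 2 and low 3, and 82 to 339 and 150 to 492 with 1 library left out. The partner count of 1 was 0 with no filter, with the chromosome offset and without low 2 and low 3, and 0 to 1 with 1 library left out. The cause was not tested, other than that the last fits hold fewer libraries. Of the 33 members, 15 turned sign in at least 1 alternative, and 17 to 21 were positive in any one setting. Timm29, at 0.00, turned in 10 of 19, Timm17b, Timm21 and Timm9 in 4 each, Grpel1 in 3, and Timm8b, Timm10 and Tomm22 in 2 each. The scalings (RLE, upper quartile) turned Timm29 alone. With the replicate number as a block, Timm44 was at -0.88 (edgeR adjusted p = 0.021) and Oxa1l at -0.66 (0.048), and 194 genes rose and 383 fell. The labels give these libraries only a number in common, and whether they share more is not stated. Deviations of same-numbered libraries correlated at 0.46, -0.05, 0.03, 0.07 and 0.16 over genes. High 1 and high 5, but not the other high libraries, correlated best with the low library of their own number. Tomm6 and Timm8a2 had too few counts to test, and Timm10b and Timm8a1 had the fewest of the tested members.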
